A study of Solanum commersonii and Solanum tuberosum with 8 samples.

Results

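A set of 261 array clones, of 11366 in all, was at least 2-fold higher in Solanum tuberosum plants carrying 35S::AtCBF3 and in none of the other 7 comparisons of the study. The clones were selected on their deposited log2 ratios in all 8 columns of the table. A member was at least 2-fold higher in S. tuberosum 35S::AtCBF3 than in warm wild type, a log2 ratio of 1 or more. Its ratio in S. commersonii 35S::AtCBF3 was under 1.5-fold in either direction, and it was under 2-fold higher in each of the 6 wild-type cold columns. The choice set an upper limit on the cold ratios and no lower one. Because every column entered the choice, the values below are a description of the clones, with no test.

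Leaf RNA was compared on 2-colour slides between cultivated potato, S. tuberosum (St), and S. commersonii (Sc), a wild potato relative that survives freezing after cold acclimation. All plants were raised for 3 weeks at 25°C in a photoperiod of 16 h light and 8 h dark. Wild-type plants of each species went to 2°C for 2 h, 24 h or 7 d. Wild type harvested after 2 h in the warm served as control at 2 h. Wild type harvested after 24 h in the warm served for both later times, so that these columns share a control within a species and the 7 d plants were older than theirs. Light was 50 in the cold and 350 in the warm, in the same unit, and changed together with temperature. The transgenic plants were kept warm and sampled 8 h after dawn, as 3 independent lines in S. commersonii and 2 in S. tuberosum, each species against its own wild type. A column gives 1 value per clone that merges 3 slides, except for 35S::AtCBF3 in St, which had 2 slides. The values of single lines and slides were not analysed here, so no spread between replicates stands behind any ratio. For the transgenic St sample the genotype entry names the other species, but its title, source and organism say S. tuberosum and were followed. Positive ratios are taken to mean more RNA in the treated or transgenic plants. The channel labels make this direction likely but do not settle it. In the opposite case "higher" and "lower" would change places throughout.

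CBF3, also called DREB1A, is an Arabidopsis transcription factor of the AP2/ERF family that binds a short element in the promoters of cold-regulated genes. In Arabidopsis it is induced by cold, and plants that make it constantly express many cold-regulated genes in the warm and survive freezing better. The 35S promoter of cauliflower mosaic virus is active in most plant tissues at all times, so the transgenic plants were built to carry the factor without cold. No gene names or sequences were matched to the clones here, and the transgene's own level was not checked. The members are therefore described by their values, with 2 clones named for the highest transgenic ratios and 2 for the lowest ratios after 7 d of cold. In leaf RNA, fewer cells that express a transcript and less of it per cell cannot be told apart.

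In St 35S::AtCBF3, 794 clones (6.99% of all clones) passed the 2-fold limit, and these were the pool from which the members came. The limit on Sc left 349 of them, and the limits on cold left 261, or 32.9% of the 794. With all columns set to the same spread, 102 clones met every limit. Of the clones set aside by the Sc limit, 296 were at least 2-fold higher in that species too, 109 were between 1.5-fold and 2-fold higher, and 40 were at least 1.5-fold lower. The other 88 clones passed the Sc limit but were at least 2-fold higher in some cold column. Of these, 45 were so in St at 7 d and 42 in St at 24 h. In Sc the corresponding numbers were 17 at 7 d, 9 at 24 h and 22 at 2 h, and in St at 2 h 21, with some clones counted in several columns.

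**Figure D1:**
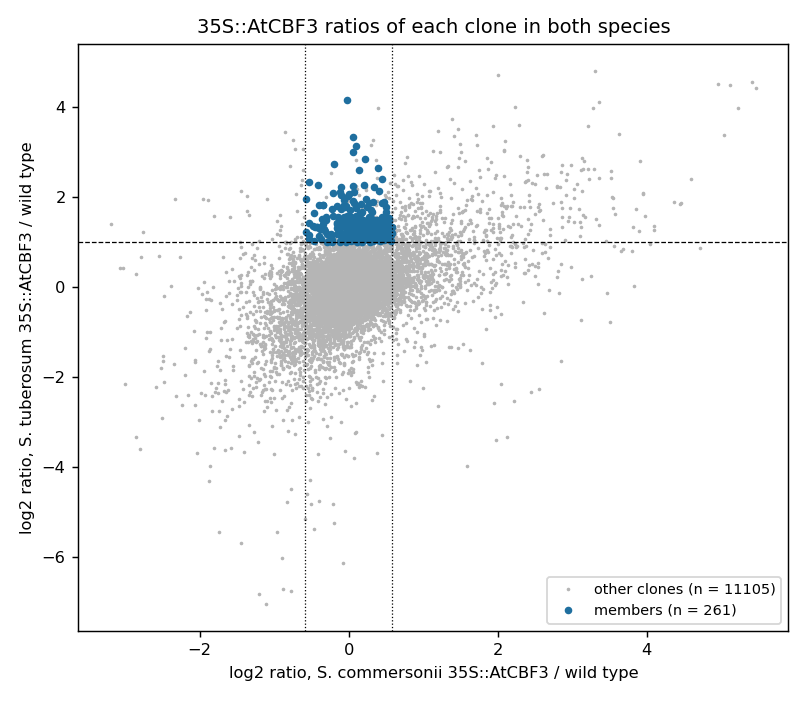
Each point is a clone, with its log2 ratio in Sc 35S::AtCBF3 on the x axis and in St 35S::AtCBF3 on the y axis. The 261 members (blue) fill the window above the dashed 2-fold line and between the dotted 1.5-fold lines, with 1 member at 4.15, and grey points in the window are clones that were 2-fold higher in some cold column.

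Most members lay close above the 2-fold limit. Their log2 ratio in St 35S::AtCBF3 ran from 1.001 to 4.15 with a median of 1.28, and its quartiles were 1.14 and 1.53. Of the members, 208 (79.7%) were between 2-fold and 3-fold higher, 31 between 3-fold and 4-fold, 19 between 4-fold and 8-fold, and 3 at least 8-fold. Within 0.1 of the limit, 52 members lay above it, and 75 clones that met every other condition lay below it. The members closest to the limit were at 1.0012, 1.0012 and 1.0015, and the closest clones left out were at 0.9993, 0.9990 and 0.9976. The St 35S::AtCBF3 column had the widest central spread of the 8 (SD from the median absolute deviation, 0.48 against 0.22 to 0.43 in the others) and the fewest slides. The 2-fold limit stood at 2.08 of these SDs and the median member at 2.67. The part that slide noise has in the membership was not tested.

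Clones with larger ratios in St were less often in the set. Members made up 43.1% of the 483 clones between 2-fold and 3-fold higher in St 35S::AtCBF3, 21.8% of the 142 between 3-fold and 4-fold, 14.4% of the 132 between 4-fold and 8-fold, and 8.11% of the 37 above that. The share that was at least 2-fold higher in Sc 35S::AtCBF3 as well went the other way, at 27.3%, 43.0%, 57.6% and 73.0% in these bands, beside 5.81% of all clones. The share of members was thus largest among the small ratios. Membership also depends on the cold limits, which set aside 88 clones that passed the Sc limit, so it does not measure restriction to St alone. These shares follow from the columns that chose the clones and were not tested.

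**Figure D2:**
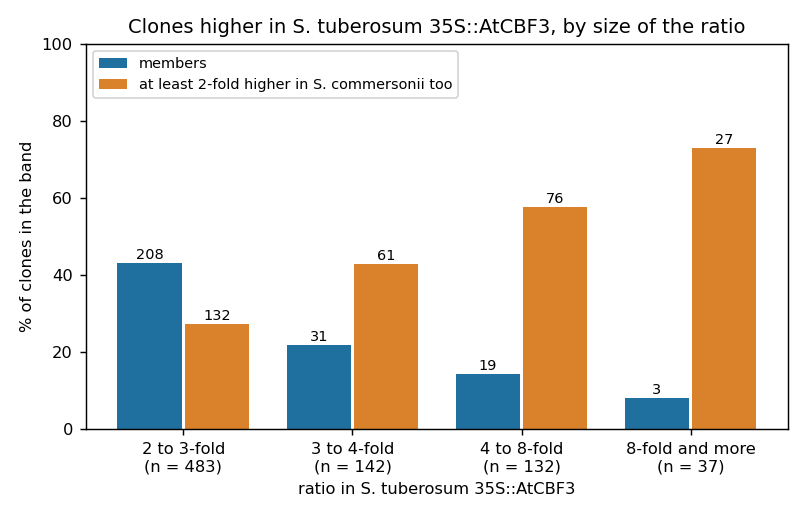
Bars give the percentage of clones in each band of the St 35S::AtCBF3 ratio that were members (blue) or at least 2-fold higher in Sc 35S::AtCBF3 too (orange), with the number of clones above each bar. The blue bars go from 43.1% to 8.11% and the orange bars from 27.3% to 73.0% as the ratio grows.

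The clone with the highest ratio was STMIW91. Its log2 ratio was 4.15 in St 35S::AtCBF3, a 17.8-fold difference, and -0.03 in Sc 35S::AtCBF3. In the cold it stood at 0.01, 0.18 and 0.09 in Sc and at -0.06, 0.11 and 0.72 in St after 2 h, 24 h and 7 d. Only the St 7 d value among the 6 exceeded 1.5-fold. The next clone, STMIX29, had 3.33 in St 35S::AtCBF3 and 0.06 in Sc. Its cold ratios were -0.06, -0.08 and -0.04 in Sc and 0.06, 0.06 and 0.20 in St, all close to 0. Over the 22 members at least 4-fold higher in St 35S::AtCBF3, the median was 2.26 there and 0.06 in Sc 35S::AtCBF3. Their cold medians lay between -0.004 at 24 h and 0.19 at 7 d in St, and between 0.0001 at 24 h and 0.05 at 2 h in Sc.

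In Sc 35S::AtCBF3 the members were not centred on 0. Their log2 ratios ran from -0.58 to 0.58 with a median of 0.14, and 181 of the 261 (69.3%) were above 0. Of the 7660 clones that met the same Sc and cold limits, whatever their St 35S::AtCBF3 ratio, 45.6% were above 0 and the median was -0.03. The members nearest the upper limit were at 0.5821 and 0.5777, beside clones left out at 0.5889 and 0.6053. At the lower limit, members stood at -0.5771 and -0.5675 and clones left out at -0.5986 and -0.6129. The gap between the species, the St minus the Sc log2 ratio, had a median of 1.17 and ran from 0.46 to 4.18. It was at least 2-fold for 178 members and smaller for 83, so that "only in St" is here a matter of limits for those 83.

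The mirror set of clones was similar in size. It held 223 clones, at least 2-fold lower in St 35S::AtCBF3, under 1.5-fold either way in Sc, and under 2-fold lower in every cold column. In Sc 35S::AtCBF3 their median was -0.22, with 26.9% above 0, so both sets leaned towards the sign they had in St. After 7 d of cold the sets were unlike. The lower set had medians of -0.33 in Sc and -0.47 in St, with 20.6% and 16.1% above 0, while the members had -0.02 and 0.09, with 47.5% and 59.0% above 0. A further set was higher in Sc 35S::AtCBF3 alone by the same limits with the species exchanged. It held 157 clones, with 7 d medians of -0.10 in Sc and -0.16 in St and a 24 h median in Sc of 0.19, against -0.01 for the members. None of these differences between sets of clones was tested.

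In the cold most members differed little from warm wild type. In all 6 cold columns 151 members (57.9%) stayed within 1.5-fold of the control, beside 52.7% of all clones. Among the 7660 clones under the same limits the share was 70.6%. At least 1.5-fold higher in some cold column were 71 members (27.2%), beside 30.8% of all clones and 14.03% of the 7660. Both shares of members were near those of all clones, a comparison on which the upper limit of the cold ratios bears. Beside the clones under the same limits, a smaller share of members stayed within 1.5-fold, and a larger share was at least 1.5-fold higher. These differences were not tested.

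At 2 h the members had a median log2 ratio of 0.05 in Sc, from -0.44 to 0.98, and of 0.004 in St, from -1.09 to 0.91. No member was 2-fold lower in Sc, beside 0.15% of all clones, and 1 was in St, beside 0.334%. The central spread of the members in St was 0.28, and that of the 7660 clones was 0.17. A total of 7 members (2.68%) were at least 1.5-fold higher in both species at 2 h, beside 10.6% of all clones and 0.535% of the 7660. Clones 2-fold higher at 2 h are kept out by the limit, and these 7 lie below it.

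At 24 h the medians were -0.01 in Sc, from -1.31 to 0.92, and 0.05 in St, from -1.62 to 0.96. In Sc 5 members (1.92%) were at least 2-fold lower, beside 1.24% of all clones, and in St 3 (1.15%), beside 1.43%. In both species together 8 members (3.07%) were at least 1.5-fold lower, beside 2.59% of all clones. These shares were near those of all clones. Among the 7660 clones under the same limits they were smaller, at 0.77% in Sc, 0.90% in St and 1.79% in both. The differences were not tested.

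At 7 d the ratios were most spread. The median was -0.02 in Sc, from -2.13 to 0.91, and 0.09 in St, from -2.15 to 0.97. In each species 9 members (3.45%) were at least 2-fold lower, beside 5.42% of all clones in Sc and 6.42% in St. At 1.5-fold, 22 members (8.43%) were lower and 19 (7.28%) higher in Sc, beside 11.9% and 9.44% of all clones. In St 26 (9.96%) were lower and 32 (12.3%) higher, beside 13.8% and 11.6%. All but the share higher in St lay below that of all clones. The upper limit of the choice bears on the shares of higher clones. Among the 7660 clones under the same limits, 3.34% in Sc and 4.35% in St were at least 2-fold lower. At 1.5-fold, 9.27% were lower and 5.54% higher in Sc, and 10.7% lower and 7.06% higher in St. Beside these clones the members' shares of higher clones were larger, and the shares of lower clones differed little. These differences were not tested.

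**Figure D3:**
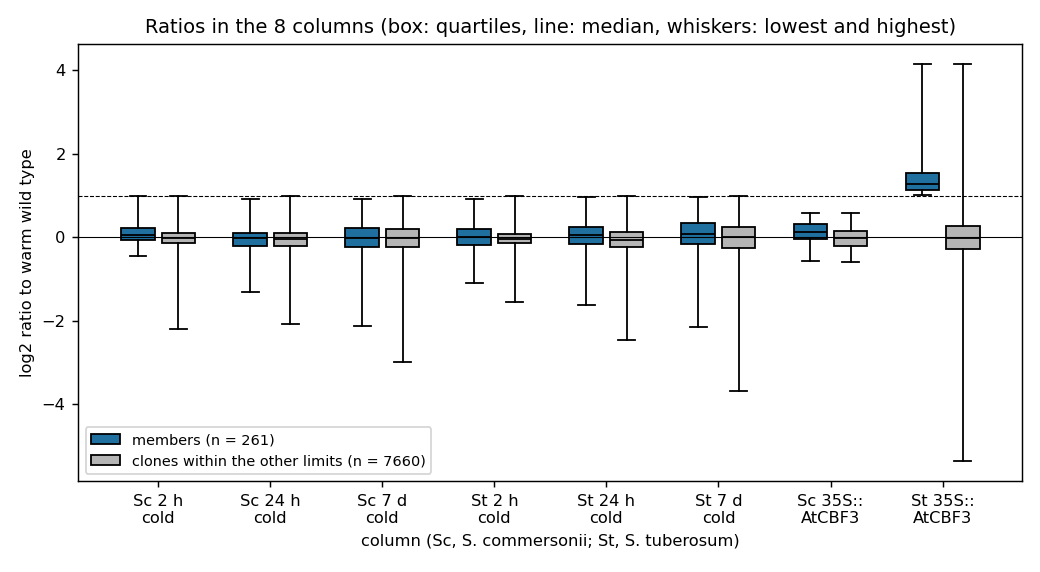
Boxes give the quartiles and median of the log2 ratio, and whiskers the lowest and highest clone, in each of the 8 columns for the 261 members (blue) and the 7660 clones under the same Sc and cold limits (grey). Member medians lie between -0.02 and 0.09 in the cold columns, at 0.14 in Sc 35S::AtCBF3 and at 1.28 in St 35S::AtCBF3, where the dashed line is the 2-fold limit.

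The members' cold ratios were related between the species. Their correlations were lower than over all clones, a comparison on which the upper limit of the cold ratios bears. Beside the clones under the same limits they were lower at 24 h and 7 d and higher at 2 h. Across the 261 members the 7 d ratios of Sc and St, which share no control plants, correlated with r = 0.67 (Spearman's rho 0.59), against r = 0.77 over the 7660 clones under the same limits and 0.82 over all clones. At 24 h r was 0.54, against 0.58 and 0.70, and at 2 h 0.56, against 0.49 and 0.86. These describe clones that share slides within a column, and clones are not independent. The sign was the same in both species for 173 members (66.3%) at 7 d, beside 76.6% of all clones and 76.4% of the 7660. At 24 h it was the same for 163 members (62.5%), beside 73.6% and 69.4%, and at 2 h for 191 (73.2%), beside 70.1% and 65.9%. The differences from all clones were not tested. Only 4 members had a 2-fold gap between the species after 7 d. The St ratio was the higher for 1 of them (0.383%, beside 1.28% of all clones) and the Sc ratio for 3 (1.15%, beside 1.13%). Beside all clones, the share was smaller where St was the higher and near the same where Sc was. The upper limit of the cold ratios bears on this comparison. Among the 7660 clones under the same limits the shares were 0.26% and 0.65%, both smaller than those of the members. These differences rest on few members and were not tested.

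A small group had ratios between 1.5-fold and the 2-fold upper limit after 7 d in both species. In all, 9 members (3.45%) were at least 1.5-fold higher at 7 d in both, beside 6.72% of all clones. The upper limit of the cold ratios bears on that comparison. Clones under the same Sc and cold limits had a share of 3.25%, near that of the members. These differences were not tested. The 7 d values of the 9 members ran from 0.61 to 0.87 in Sc and from 0.59 to 0.97 in St. These 9 were picked by their 7 d ratios, so that 7 d stands out by the choice. At 24 h their medians were 0.02 in Sc and 0.11 in St, and at 2 h -0.03 and -0.09. In St at 24 h 8 of the 9 were above 0, beside 55.6% of all members and 50.7% of all clones. In Sc at 24 h 5 of the 9 were, beside 46.4% and 50.5%. In Sc 35S::AtCBF3 the median of the 9 was 0.39. There 7 of the 9 were above 0, beside 69.3% of all members and 51.2% of all clones. The 7 d medians of the 9 were 0.75 in Sc and 0.81 in St, below the cold limit of 1. Over all members, the highest cold ratios kept were 0.9810, 0.9709 and 0.9695, and the closest clones left out had 1.0070, 1.0113 and 1.0118.

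Other members were lower in the cold while higher with AtCBF3 in St. A total of 17 members (6.51%) were at least 2-fold lower in some cold column, beside 8.69% of all clones and 6.12% of the 7660. Of these 17, 5 were so in both species, 6 in Sc alone and 6 in St alone. The word alone rests on the 2-fold limit, and some clones were close to it in the other species. At 7 d the 6 in Sc alone ran from -0.92 to -0.02 in St. The 6 in St alone ran from -0.94 to 0.02 in Sc. The same split over all clones is not given here. A single column carried the low ratio in 10 of the 17, and 3 columns at most. Their ratio in St 35S::AtCBF3 ran from 1.06 to 2.99 with a median of 1.47. In Sc 35S::AtCBF3 14 of the 17 were above 0, beside 69.3% of all members and 51.2% of all clones. At 7 d, 13 members (4.98%) were at least 1.5-fold lower in both species, beside 8.84% of all clones and 6.475% of the 7660. At least 2-fold lower in both were 3 members (1.15%), beside 3.87% and 2.18%. The 13 had medians of -0.95 in Sc and -0.92 in St at 7 d, and of -0.48 and -0.49 at 24 h.

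The lowest mean over both 7 d columns was that of STMDP32. After 2 h, 24 h and 7 d its ratios were -0.33, -0.48 and -2.13 in Sc and 0.80, -1.62 and -2.15 in St. The clone was thus higher in St at 2 h and lower from 24 h on, while in Sc it was below 0 throughout. With 35S::AtCBF3 it stood at 0.05 in Sc and 1.17 in St, opposite in sign to the late cold ratio. STMHG96 was next, with -0.02, -0.68 and -2.13 in Sc and -0.21, -0.49 and -1.78 in St. Its 35S::AtCBF3 ratios were -0.47 and 1.64. The course in the cold was similar in both species for this clone, and the transgenic ratios had opposite signs.

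**Figure D4:**
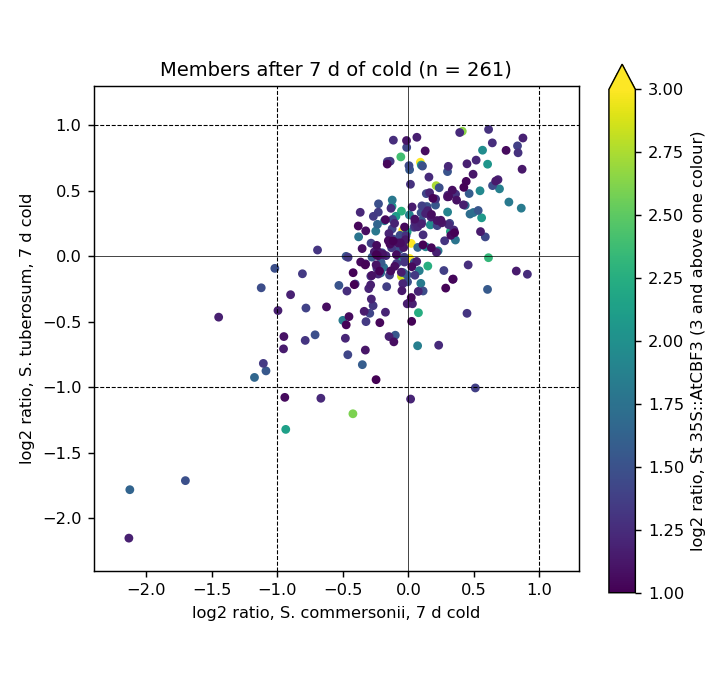
Each point is 1 of the 261 members, with its log2 ratio after 7 d of cold in Sc on the x axis and in St on the y axis, coloured by its St 35S::AtCBF3 ratio. Dashed lines mark 2-fold, and 3 members lie beyond it in the lower left corner, with none beyond the upper limits.

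The names of the clones were not used by the choice, and members were unevenly spread over them. By the first 4 characters of the name, members made up between 1.22% of clones (16 of 1309 in STMD) and 3.41% (69 of 2026 in STMI), beside 2.30% of all clones. The STMI series held 26.4% of the members and 17.8% of all clones, and both of the clones named above for their high ratios. In the same series 9.28% of clones passed the 2-fold limit in St 35S::AtCBF3, against 4.66% in STMD and 4.94% in STMC. The shares did not run in parallel in every series, since 19.4% passed it in STMF, where 2.78% of clones were members, and 8.96% in STME, where 2.27% were. The mirror set was most frequent in STMC (3.97%), where members made up 1.63%, and the central spread of the St 35S::AtCBF3 ratio was 0.62 in STMC and 0.48 in STMI. By the first 5 characters, 119 of 157 name blocks held a member, and the most in a block was 6, in 4 blocks. What the letters stand for is not given in the sources used here, and several clones can carry the same gene, so the number of genes behind the members is not known here.

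**Figure D5:**
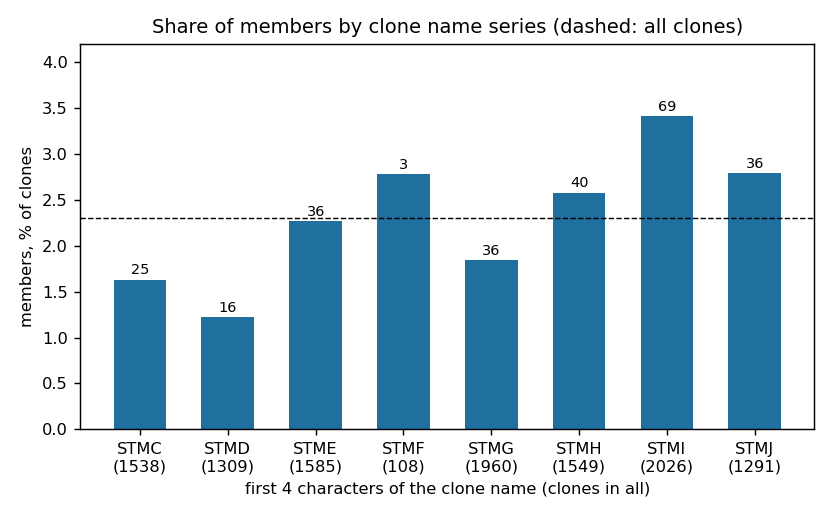
Bars give members as a percentage of the clones whose names share the first 4 characters, with the number of members above each bar and the number of clones in brackets on the x axis. The shares run from 1.22% in STMD to 3.41% in STMI, around 2.30% for all clones (dashed line).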

How the data were processed

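The data were 8 columns of log2 ratios for 11366 clones, deposited by the authors as 1 value per clone and sample with no missing value. Per the labels, a deposited value merges 3 slides, and 2 in the case of 35S::AtCBF3 in S. tuberosum (St; Sc is S. commersonii). Indirect aminoallyl labelling with both dyes was used, per the labels' protocols, and each channel lists Cy3 as well as Cy5, so that a dye effect can remain. The submitters' processing notes name limma. How background was corrected, how slides were normalized and merged, the log base and any centring were not stated in those sources. Column medians lay between -0.0075 and 0.011, and the lowest correlation between columns was -0.0095. Signals of the slides were not used here, so that dim and bright clones are treated alike, and precision is limited by how few slides there were.

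Members were counted with Python 3.11.15 and pandas 2.3.3. With 1 value per column, no p-value, standard error or interval between conditions was computed. Central spread is the median absolute deviation scaled to an SD. The code of the rule was checked on simulated columns with planted ratios far above their noise. That check says nothing about how reliable the rule is at the noise of these data. The members and all lists were chosen with earlier results of these data known. The gene lists and leaf, tuber and root markers could not be matched to clones and were not run. Named clones are the 2 members highest in St 35S::AtCBF3 and the 2 lowest by the mean of the 7 d columns. Alternatives changed each limit, centred or scaled the columns, set "lower" at 1.5-fold, and, chosen after seeing the data, put the cold limit on both sides or dropped it for St at 24 h.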

Additional observations from a re-analysis of the deposited data

Results flagged for a closer look

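The single value of one species was above 0 and that of the other below 0 in the following cases, and none of the differences was tested. With 35S::AtCBF3 the St minus Sc log2 ratio was 4.18 for STMIW91 (4.15 against -0.03) and 2.11 for STMHG96 (1.64 against -0.47), both by the choice of the clones. At 2 h of cold it was 1.13 for STMDP32 (0.80 against -0.33), beside central spreads of 0.22 in both 2 h columns. The other cases were smaller. STMIW91 had -0.067 at 2 h, and STMIX29 had 0.12, 0.15 and 0.24 at 2 h, 24 h and 7 d. The member medians differed by 0.062 at 24 h and by 0.11 at 7 d.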

How the results depend on the processing

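The number of members depended on the limits and the scaling. It was 261 as reported, 745 with a 1.5-fold and 53 with a 3-fold limit in St 35S::AtCBF3, 171 with a tighter limit of 0.32 (log2) in Sc 35S::AtCBF3, and 102 after the columns had been given the same spread. A cold limit on both sides left 244, and no limit for St at 24 h gave 272. Of the 102, 91 were among the 261 (89.2% of the 102 and 34.9% of the 261). The share of members at least 2-fold lower in a cold column left the exact 95% binomial interval of the reported share in the following cases. That interval is a yardstick over clones, which are not independent, and says nothing about plants. With the 3-fold limit in St 35S::AtCBF3 the shares were 0% in St at both 2 h and 24 h. With the limit of 0.32 in Sc 35S::AtCBF3 the share was 0.58% in Sc at 24 h. With scaling it was 6.86% there and 0% in St at 2 h. With "lower" set at 1.5-fold, the shares were 6.13% and 8.43% in Sc and 5.75% and 9.96% in St at 24 h and 7 d. That limit is looser, so these shares could only stay or rise. Member medians in the cold columns stayed between -0.06 and 0.19 under every setting run. Those of Sc at 7 d (-0.06 to 0.07) and of St at 2 h (-0.04 to 0.03) and 24 h (-0.02 to 0.06) took either sign. The median in Sc 35S::AtCBF3 stayed above 0 (0.06 to 0.19). Apart from the scaling and limits themselves, the cause of these shifts was not tested. Leaving out a slide, and averaging clones of the same gene, were not run. No paired analysis was possible because each sample has 1 value per clone.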

Other observations

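Of the 6 cold columns, the one in which a member had its highest ratio was most often St at 7 d (83 members, 31.8%), then Sc at 2 h (56 members, 21.5%), and least often Sc at 24 h (20 members, 7.66%). The lowest ratio fell most often in Sc at 7 d (62 members, 23.8%) and at 24 h (55 members, 21.1%). The same counts over all clones are not given here, so these are not read as a trait of the members. Over all clones the central spread was widest in St at 7 d among the 6 cold columns, at 0.43. All 6 cold ratios were above 0 for 30 members (11.5%) and below 0 for 17 (6.51%). These shares were 10.2% and 10.4% of all clones, and 5.08% and 12.2% of the 7660 clones under the same Sc and cold limits.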
